A study of Mus musculus with 6 samples.

Results

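Immediate early genes are transcribed within minutes of a stimulus, without new protein synthesis, and 34 of them that are known to respond to neuronal activity were followed in mouse hippocampus after loss of the histone demethylases KDM1A and KDM5C. They were chosen as a named list and matched by symbol to 34 of 48795 Ensembl identifiers in the gene counts, and all 34 had enough counts to be tested. The double knockout (double KO) group carried floxed Kdm1a f/f and Kdm5c f/f alleles with CamKIIα-CreERT2, a recombinase that tamoxifen activates and that the CamKIIα promoter restricts to forebrain principal neurons. It removes exons 5 and 6 of Kdm1a and exons 11 and 12 of Kdm5c. The wild-type (WT) group is labelled by that genotype alone, and the sources used here do not say whether it carried the floxed alleles or the recombinase. Both groups received tamoxifen at 2 to 3 months of age on a C57BL/6J background, and polyadenylated RNA came from whole hippocampi dissected after cervical dislocation, with 3 libraries per group. No stimulus before dissection is named in the labels. The sources used here give neither the interval from tamoxifen to dissection nor the time of day nor the sex of the mice. Because every cell of the hippocampus was sequenced together, fewer cells of a type and less RNA per cell cannot be told apart, and cells without the recombinase add their transcripts to each library.

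In neurons, calcium entry through NMDA receptors and L-type channels activates calmodulin kinases and the ERK pathway. These phosphorylate CREB and the partners of SRF, which are already bound at the promoters of immediate early genes. The products form a transient wave of transcription factors (FOS and JUN proteins of the AP-1 dimer, EGR zinc finger proteins, NR4A orphan nuclear receptors, NPAS4), of enzymes that switch the signalling off again (dual-specificity phosphatases, salt-inducible and polo-like kinases) and of proteins that act at the synapse (ARC, BDNF, NPTX2). In the hippocampus the wave follows exploration, learning, seizures and handling, and most of its transcripts decay within hours.

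Promoters of 6 of these genes are printed with matches to response elements marked. They are the gene that fell and has an entry in the RefSeq promoter table, Nr4a2, and the 5 with an entry whose levels differed most between libraries of a group. An entry existed for 27 of the 34 genes, and the table had none for Nptx2, Arc, Egr1, Egr3, Ier2, Sik1 or Trib1. Each sequence runs from 250 bases before to 50 bases after the transcription start (RefSeq, GRCm38.p6), 5′ to 3′ on the strand of the gene. They lie at chr2:57123954-57124253 (minus strand, Nr4a2), chr10:67537619-67537918 (plus, Egr2), chr19:4989922-4990221 (minus, Npas4), chr12:85473640-85473939 (plus, Fos), chr17:26508423-26508722 (minus, Dusp1) and chr1:134079106-134079405 (minus, Btg2). Egr2 had 5 entries, of which the one at the start of a principal GENCODE transcript is shown. The RefSeq starts of Npas4, Dusp1 and Btg2 lay 345, 47 and 35 bases from the nearest such start. The whole windows of Egr2, Npas4 and Dusp1 lie inside the genes as GENCODE draws them over all their transcripts. Capitals mark matches on either strand to the CREB site TGACGTCA (full CRE), its shorter form TGACG (short CRE), the CArG box that SRF binds, the AP-1 site TGANTCA and the EGR site GCGNGGGCG. A full CRE contains a short CRE on each strand.
Nr4a2: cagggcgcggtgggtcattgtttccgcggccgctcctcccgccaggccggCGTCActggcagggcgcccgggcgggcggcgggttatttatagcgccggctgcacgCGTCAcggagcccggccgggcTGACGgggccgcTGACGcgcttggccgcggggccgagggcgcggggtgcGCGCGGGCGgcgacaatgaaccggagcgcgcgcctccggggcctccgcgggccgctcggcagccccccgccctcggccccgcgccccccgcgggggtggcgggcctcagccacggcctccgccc
Egr2: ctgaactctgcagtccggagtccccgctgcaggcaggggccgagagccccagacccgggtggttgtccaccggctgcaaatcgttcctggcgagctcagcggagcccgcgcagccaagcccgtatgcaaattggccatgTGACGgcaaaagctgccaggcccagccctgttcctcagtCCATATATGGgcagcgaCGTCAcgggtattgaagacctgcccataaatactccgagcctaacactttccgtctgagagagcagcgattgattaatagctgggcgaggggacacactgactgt
Npas4: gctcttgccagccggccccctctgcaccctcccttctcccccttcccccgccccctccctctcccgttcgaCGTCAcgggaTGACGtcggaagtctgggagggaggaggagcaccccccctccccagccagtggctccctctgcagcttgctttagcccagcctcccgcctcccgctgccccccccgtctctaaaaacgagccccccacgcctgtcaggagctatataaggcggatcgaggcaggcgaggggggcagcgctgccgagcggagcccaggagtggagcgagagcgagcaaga
Fos: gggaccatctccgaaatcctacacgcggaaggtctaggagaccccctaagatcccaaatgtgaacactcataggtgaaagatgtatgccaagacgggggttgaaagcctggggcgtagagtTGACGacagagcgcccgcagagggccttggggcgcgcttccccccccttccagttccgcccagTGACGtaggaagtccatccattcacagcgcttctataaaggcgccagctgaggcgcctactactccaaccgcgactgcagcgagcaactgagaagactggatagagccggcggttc
Dusp1: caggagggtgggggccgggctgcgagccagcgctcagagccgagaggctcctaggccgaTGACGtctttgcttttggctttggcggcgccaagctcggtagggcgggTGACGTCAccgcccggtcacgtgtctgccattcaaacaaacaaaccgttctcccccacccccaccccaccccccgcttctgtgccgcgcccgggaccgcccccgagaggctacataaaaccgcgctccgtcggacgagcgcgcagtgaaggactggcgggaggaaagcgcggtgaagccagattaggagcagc
Btg2: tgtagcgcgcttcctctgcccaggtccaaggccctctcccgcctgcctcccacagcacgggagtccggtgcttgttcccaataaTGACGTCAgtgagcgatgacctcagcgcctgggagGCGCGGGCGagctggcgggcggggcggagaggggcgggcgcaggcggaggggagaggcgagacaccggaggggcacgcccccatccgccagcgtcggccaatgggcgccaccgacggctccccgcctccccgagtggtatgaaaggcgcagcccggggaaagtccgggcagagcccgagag
The Nr4a2 window held 4 short CREs and an EGR site, those of Npas4 and Fos 2 short CREs each, and that of Egr2 2 short CREs and a CArG box that ends 63 bases before the start. Dusp1 and Btg2 had a full CRE, ending 136 and 159 bases before the start, beside a further short CRE in Dusp1 and an EGR site in Btg2. Among the 27 genes with an entry, a short CRE was found in 21 (77.8%), against 23.0% of all 27025 genes in the table. The EGR site was found in 8 (29.6%, against 6.27%), the full CRE in 4 (14.8%, against 2.03%), the CArG box in 2 (7.41%, against 1.81%) and the AP-1 site in 2 (7.41%, against 8.97%). A gene with several promoters counts once if any of them holds the motif. Counted by promoter, 27 of 42 (64.3%) had a short CRE, against 20.8% of all 32851. The shares were not matched for base composition, and a match is a string of letters, not a site shown to be bound.

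Depth was alike in all libraries, at 19342337 to 19637352 counts in double KO and 19309576 to 19700249 in WT. Kdm1a, a target of the recombinase, measured 38.0, 37.6 and 40.0 counts per 1000000 (CPM) in double KO, against 75.2, 76.6 and 69.2 CPM in WT (log2 fold change -0.93, edgeR adjusted p = 4.32e-07). Kdm5c, the other target, measured 74.3, 72.1 and 65.3 CPM in double KO, against 78.3, 82.8 and 77.2 CPM in WT, and did not pass (-0.17, edgeR adjusted p = 0.143). Counts over whole genes include the exons that stay, so they check the labels only in part. The hippocampal principal neuron markers Camk2a, Prox1 and Wfs1 were present in every library. Of 16861 genes tested, 995 (5.9%) rose and 177 (1.05%) fell in double KO, and 6.95% changed in either direction. Rose and fell here mean a p under 0.05 in the quasi-likelihood test of edgeR after Benjamini-Hochberg adjustment over all genes tested. The number that fell was 48, 67 and 102 without double KO replicates 3, 2 and 1 and 323 without WT replicate 3. Separate animals per library are not stated in the labels. The p-values then reflect the spread between these 6 samples alone, which may be technical.

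Most of the immediate early genes did not differ between double KO and WT beyond the spread between libraries. Of the 34, Nptx2 rose and Nr4a2 fell, so that 5.88% changed, close to the 6.95% among all genes tested. The fold change was below 0 on the log2 scale for 25 genes and above 0 for 9, with a median of -0.18 against -0.01 over all genes tested. The 95% interval of the fold change lay below 0 for 10 genes, above 0 for Nptx2 and spanned 0 for 23. An unadjusted p under 0.05 was reached by 11 of 34 genes, against 20.2% of all genes tested. In DESeq2 and in limma-voom Nptx2 and Nr4a2 were also the genes called. With no filter on low counts, by contrast, edgeR called 7 lower (Dusp6, Arc, Nr4a1, Sik1, Nr4a2, Nr4a3 and Dusp5), and Nptx2 was again the gene that rose.

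**Figure D1:**
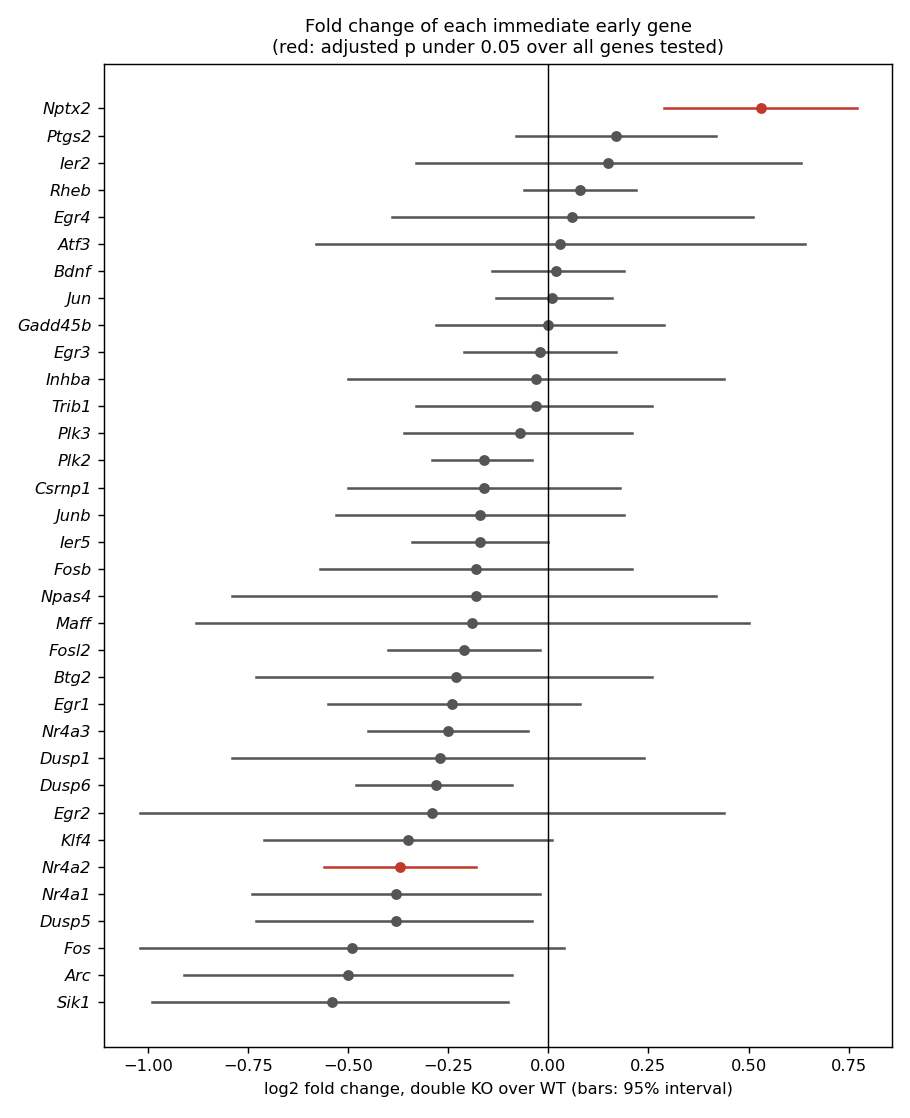
Log2 fold change of double KO over WT for each of the 34 genes (horizontal axis), with points at the estimate and bars for its 95% interval. Red marks Nptx2 and Nr4a2, the genes with an adjusted p under 0.05, and the intervals of 23 genes span 0.

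Nptx2, which encodes neuronal pentraxin 2 (NARP), a secreted protein that clusters AMPA receptors, was the gene that rose. It lies on chromosome 5 at 144545902 to 144557478, plus strand (GRCm38, ENSMUSG00000059991). Its level was 30.5, 32.9 and 42.1 CPM in double KO replicates 1 to 3, against 22.6, 24.3 and 26.1 CPM in WT replicates 1 to 3. Every double KO library lay above every WT library, although double KO replicate 3 stood well above the other two of its group. The log2 fold change was 0.53 (SE 0.111, 95% interval 0.29 to 0.77, edgeR adjusted p = 0.00834), or 1.45-fold. Without WT replicate 1 the edgeR adjusted p was 0.05, just above the threshold, and without double KO replicate 3 the log2 fold change was 0.38 with an edgeR adjusted p of 0.0408.

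Nr4a2 (NURR1), an orphan nuclear receptor of the family that CREB induces, was the gene that fell. It lies on chromosome 2 at 57106830 to 57124003, minus strand (ENSMUSG00000026826). Its level was 66.7, 67.8 and 55.8 CPM in double KO replicates 1 to 3, against 90.1, 83.4 and 72.2 CPM in WT. The groups did not overlap, and the lowest WT library, replicate 3, was within 5 CPM of the highest double KO library. The log2 fold change was -0.37 (SE 0.0886, 95% interval -0.56 to -0.18, edgeR adjusted p = 0.0205). The call was lost without double KO replicate 3, WT replicate 1 or WT replicate 2 (edgeR adjusted p = 0.148, 0.101 and 0.059).

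Both relatives of Nr4a2 were also lower on average without passing. Nr4a3 (NOR1) measured 92.0, 97.0 and 72.5 CPM in double KO, against 99.1, 113 and 99.1 CPM in WT, with no overlap (log2 fold change -0.25, 95% interval -0.45 to -0.05, edgeR adjusted p = 0.148). Nr4a1 (NUR77) measured 90, 82 and 53.5 CPM in double KO, against 74.2, 103 and 116 CPM in WT (log2 fold change -0.38, 95% interval -0.74 to -0.02, edgeR adjusted p = 0.223). For Nr4a1 the groups overlapped, since WT replicate 1 lay below 2 of the double KO libraries. The other transcription factors outside the AP-1 and EGR families were Npas4, a neuron-restricted factor that answers calcium entry, Klf4, a Krüppel-like factor, and Csrnp1, an AXIN1-induced nuclear protein. Their log2 fold changes were -0.18, -0.35 and -0.16, and the 95% interval of each spanned 0 (-0.79 to 0.42, -0.71 to 0.01 and -0.50 to 0.18). Klf4 ran from 4.77 to 5.98 CPM in double KO and from 5.69 to 8.38 CPM in WT, and Csrnp1 from 7.78 to 11.1 CPM and from 7.95 to 11.2 CPM.

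Among the 7 AP-1 genes and their relatives 0 passed, with 1 (Fosl2) at an unadjusted p under 0.05. Fos, whose protein pairs with JUN in the AP-1 dimer, measured 18.9, 25.4 and 14.4 CPM in double KO, against 18.2, 22.9 and 41.2 CPM in WT. WT replicate 3 stood above all others and the groups overlapped. The log2 fold change of -0.49 had a 95% interval of -1.02 to 0.04 (edgeR adjusted p = 0.294). Without WT replicate 3 it was -0.07. Fosl2, a FOS relative that persists longer, measured 70.5, 73.5 and 57.8 CPM in double KO, against 71.3, 83.1 and 79.1 CPM in WT (log2 fold change -0.21, 95% interval -0.40 to -0.02, edgeR adjusted p = 0.184). Jun, the partner of FOS, had closely similar levels, at 99, 113 and 103 CPM in double KO, against 98.7, 102 and 111 CPM in WT, and its 95% interval of -0.13 to 0.16 was among the narrowest of the 34. Junb and Fosb, partners in the same dimer, had WT replicate 3 as their highest library, at 83.3 and 21.5 CPM. The other libraries of Junb lay between 46.2 and 68.5 CPM in double KO and at 52.8 and 51.5 CPM in WT, and those of Fosb between 11.7 and 17.1 CPM and at 13.1 and 13.2 CPM. Their log2 fold changes of -0.17 and -0.18 turned to 0.09 and 0.10 without it. The Junb exons overlap those of Prdx2 on the opposite strand over 173 bases, and without a stated strand setting reads there cannot be told apart. The exons of Jun, Dusp1, Bdnf and Plk3 overlap a gene on the opposite strand over 232, 11, 497 and 84 bases. Those of Dusp5 and Csrnp1 do so over 547 and 161 bases, with antisense genes that are not among the counted genes. Maff and Atf3, a small MAF protein and a stress-induced bZIP factor, stayed near 1 CPM, at 0.714 to 1.70 and 0.867 to 1.19 CPM in double KO against 1.15 to 1.27 and 0.781 to 1.20 CPM in WT.

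Of the 4 EGR genes, which encode zinc finger factors downstream of SRF, 0 passed in edgeR, DESeq2 or limma-voom and 0 had an unadjusted p under 0.05. Egr1 was the most abundant and measured 152, 196 and 109 CPM in double KO, against 164, 186 and 188 CPM in WT. The double KO libraries thus reached both above and below the whole WT range (log2 fold change -0.24, 95% interval -0.55 to 0.08, edgeR adjusted p = 0.408). Without double KO replicate 2 Egr1 was called lower (log2 fold change -0.46, edgeR adjusted p = 0.0387). Egr2 measured 5.40, 7.78 and 2.13 CPM in double KO, against 3.87, 6.69 and 8.17 CPM in WT, with each group's lowest library far below its highest (log2 fold change -0.29, 95% interval -1.02 to 0.44). Egr4 ran from 19.5 to 37.4 CPM and from 19.1 to 32.2 CPM in the same groups. Egr3 varied least of the family, at 34.6 to 43.1 CPM in double KO and 37.2 to 43.1 CPM in WT, with a log2 fold change of -0.02 (95% interval -0.21 to 0.17).

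All 7 phosphatase and kinase genes had a fold change below 0, and 0 passed, with 4 at an unadjusted p under 0.05. Dusp6, a phosphatase of ERK in the cytoplasm, came closest, at 52.1, 56.2 and 46.5 CPM in double KO, against 59.2, 57.7 and 71.7 CPM in WT. Its groups did not overlap (log2 fold change -0.28, 95% interval -0.48 to -0.09, edgeR adjusted p = 0.0812), and without WT replicate 2 the edgeR adjusted p was 0.0499. Plk2, a polo-like kinase that weakens overactive synapses, measured 195, 209 and 206 CPM in double KO, against 234, 218 and 230 CPM in WT. The groups did not overlap here either, with a log2 fold change of -0.16 (95% interval -0.29 to -0.04, edgeR adjusted p = 0.129). Sik1, a salt-inducible kinase that restrains CREB coactivators, measured 15.2, 9.38 and 8.32 CPM in double KO, against 11.5, 17.2 and 19.3 CPM in WT. The overlap came from double KO replicate 1, and without it Sik1 was called lower (log2 fold change -0.85, edgeR adjusted p = 0.0157), against -0.54 with all libraries (95% interval -0.99 to -0.10, edgeR adjusted p = 0.153). Dusp5, a nuclear phosphatase of ERK, ran from 17.2 to 25.1 CPM in double KO and from 21.6 to 33.4 CPM in WT. It had a log2 fold change of -0.38 (edgeR adjusted p = 0.195), and was called lower without WT replicate 1 (-0.56, edgeR adjusted p = 0.0325). Dusp1, a nuclear phosphatase of stress-activated kinases, measured 20.7, 24.2 and 21 CPM in double KO, against 17.2, 20.4 and 42.1 CPM in WT. WT replicate 3 lay far above all others, and without it the log2 fold change of -0.27 turned to 0.22. Plk3, another polo-like kinase, and Trib1, a pseudokinase, had log2 fold changes of -0.07 and -0.03. Plk3 ran from 7.96 to 10.7 CPM in double KO and from 9.09 to 11.0 CPM in WT, and Trib1 from 11.5 to 15.6 CPM and from 11.8 to 16.4 CPM.

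The growth arrest genes were Btg2, an antiproliferative cofactor, Gadd45b, a stress sensor tied to DNA demethylation, and the nuclear proteins Ier2 and Ier5, and 0 of the 4 passed, with 1 (Ier5) at an unadjusted p under 0.05. Btg2 measured 19.8, 30.6 and 23.6 CPM in double KO, against 20.0, 23.4 and 43.6 CPM in WT, again with WT replicate 3 highest. Gadd45b was at 10.2 to 12.8 CPM in double KO and 9.68 to 13.5 CPM in WT, with a log2 fold change of 0.00 (95% interval -0.28 to 0.29). Ier2 ran from 5.86 to 11.1 CPM in double KO and from 5.69 to 8.90 CPM in WT (log2 fold change 0.15). Ier5 ran from 39.0 to 44.2 CPM in double KO and from 44.0 to 51.5 CPM in WT (log2 fold change -0.17).

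Besides Nptx2, 0 of the 6 synaptic and secreted genes passed. Arc, which encodes a capsid-like protein that removes AMPA receptors from synapses, was the most abundant member per length, at a mean of 67.9 CPM per kilobase of exon over all libraries. It measured 203, 190 and 122 CPM in double KO, against 166, 270 and 294 CPM in WT. WT replicate 1 lay below 2 of the double KO libraries, and the log2 fold change of -0.50 (95% interval -0.91 to -0.09) did not pass (edgeR adjusted p = 0.147). Without WT replicate 1 it did (-0.72, edgeR adjusted p = 0.0183). Bdnf, the neurotrophin gene with many activity-dependent promoters that gene counts cannot tell apart, measured 41.0, 44.1 and 46.5 CPM in double KO, against 47.0, 39.9 and 42.6 CPM in WT. Its log2 fold change was 0.02 (95% interval -0.14 to 0.19). Ptgs2 (cyclooxygenase 2) ran from 25.4 to 36.0 CPM in double KO and from 25.1 to 27.7 CPM in WT, with overlapping groups (log2 fold change 0.17, 95% interval -0.08 to 0.42). Rheb, a small GTPase that activates mTOR, measured 105, 98.5 and 108 CPM in double KO, against 104, 93.5 and 96.4 CPM in WT (log2 fold change 0.08, 95% interval -0.06 to 0.22). Inhba, the gene of the activin A subunit, was scarce, at 1.73 to 2.89 CPM in double KO and 2.14 to 2.55 CPM in WT.

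**Figure D2:**
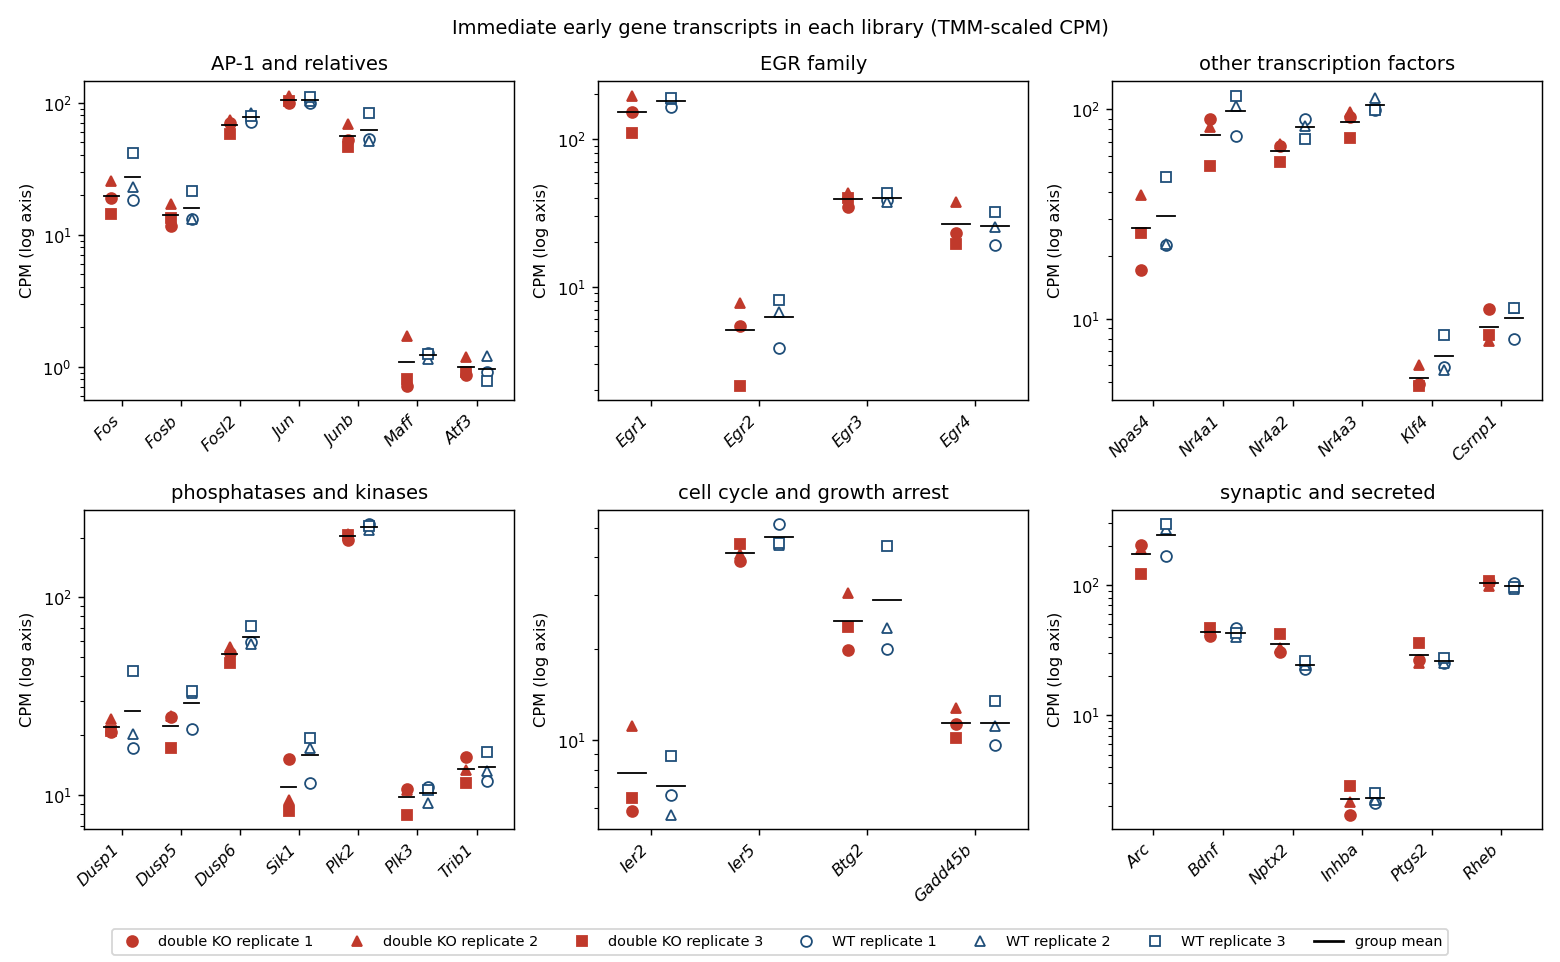
TMM-scaled CPM (log axis) of each gene in each library, in 6 panels by role, with double KO (filled) left of WT (open), symbols for the replicate number and a line at the group mean. WT replicate 3 is the open square that lies highest for Fos, Dusp1 and Btg2, and the groups are apart for Nptx2, Nr4a2, Nr4a3, Dusp6 and Plk2.

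In all, the groups were apart for 5 of the 34 genes. Nptx2 was higher in every double KO library than in any WT library, which held for 14% of all genes tested, and Nr4a2, Nr4a3, Dusp6 and Plk2 were lower in every double KO library, which held for 11.2%. Per kilobase of exon, Plk2, Egr1 and Jun came after Arc, at means of 48.0, 37.0 and 32.7 CPM per kilobase. The lowest were Atf3, Maff and Inhba, at 0.454, 0.443 and 0.358 CPM per kilobase.

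These genes differed between libraries of 1 group far more than most genes do. The SD of log2 CPM around the group means (4 degrees of freedom, prior count of 2) had a median of 0.260 over the 34 genes and of 0.121 over all genes tested. Since spread depends on level, each gene was also set beside the tested genes in the same decile of mean level, and 30 of 34 had a wider spread than the median gene of their decile. Of the 34, 17 lay at or above the 95th percentile of their decile and 12 at or above the 99th, where 5.04% and 1.01% of all genes tested lie. Spread exceeded the SD that counting alone gives on the log2 scale in 33 genes, the exception being Atf3 at a mean of 19 counts. That share was not computed for all genes tested, so it cannot be called particular to these genes. Over all genes, replicates of a group differed by 3.43 to 9.87 times sampling noise (chi-square per degree of freedom). The median stayed between 0.226 and 0.280 with any library left out, while that of all genes tested stayed between 0.108 and 0.126.

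Egr2, Npas4, Fos and Dusp1 had the widest spread, with SDs of 0.768, 0.605, 0.514 and 0.490 on the log2 scale. Npas4 measured 17.1, 39.0 and 25.6 CPM in double KO, against 22.5, 22.7 and 47.5 CPM in WT, so that in each group 1 library stood well above the others. Its SD was 9.96 times that of counting error at a mean of 564 counts. Plk2, Rheb, Jun and Bdnf had the narrowest spread, with SDs of 0.0540, 0.0726, 0.0913 and 0.105, and Plk2, Rheb, Atf3 and Inhba were the 4 genes below the median of their decile. By family, the median SD was 0.374 for the EGR genes, 0.345 for AP-1 genes and relatives, 0.311 for growth arrest genes, 0.262 for the other transcription factors, 0.231 for phosphatases and kinases and 0.195 for synaptic and secreted genes. The 21 genes with a short CRE in a promoter window had a median SD of 0.331, and the 6 with an entry but none had 0.154. These medians are a description and were not set against level. Plk2, Rheb and Bdnf, among the 4 narrowest, have a short CRE, and the 7 genes with no entry are in neither group.

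**Figure D3:**
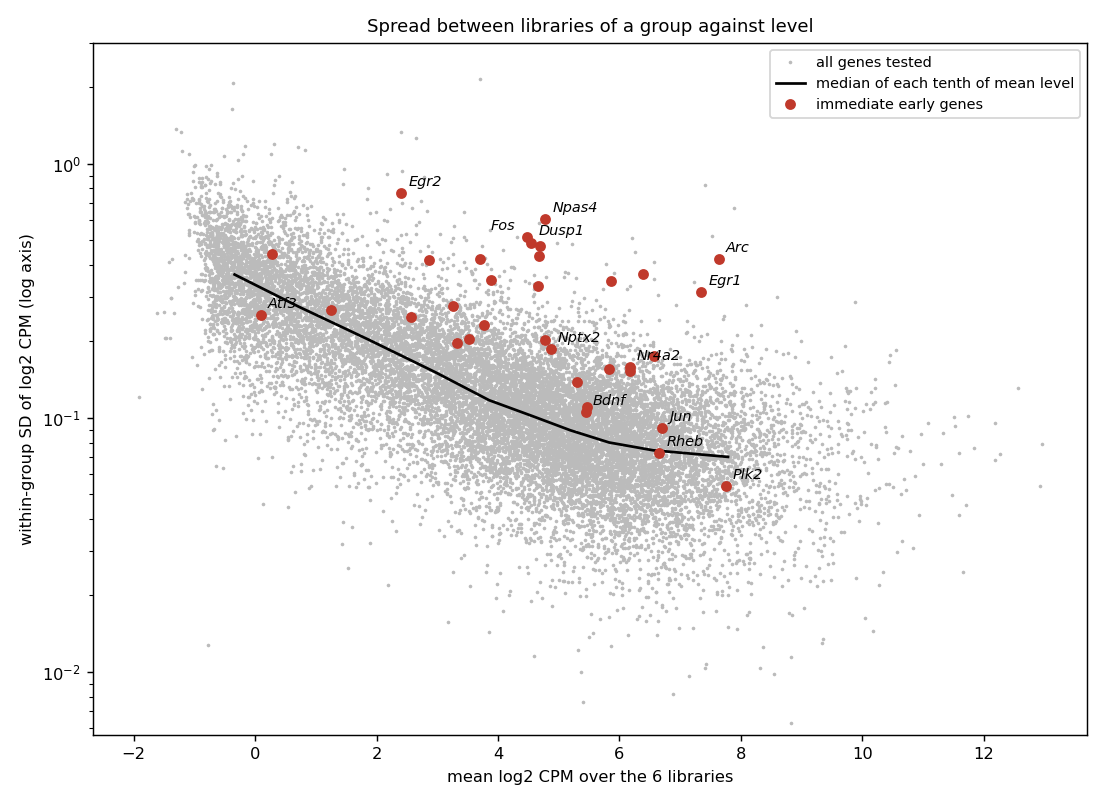
Within-group SD of log2 CPM (vertical, log axis) against mean log2 CPM (horizontal) for all genes tested (grey) and the 34 immediate early genes (red), with a black line at the median of each decile of mean level. Most red points lie above the line, with Egr2, Npas4, Fos, Dusp1, Arc and Egr1 far above it and Plk2 below it.

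The same 2 libraries were high for most of the genes. Double KO replicate 2 was the highest of its group for 22 of 34 (64.7%), against 34% of all genes tested, and WT replicate 3 for 24 of 34 (70.6%), against 35.9%. Both held at once for 16 genes (47.1%), against 14.7% of all genes tested. They included Fos, Fosb, Jun, Junb, all 4 EGR genes, Npas4, Dusp1, Ier2 and Btg2. At the low end were double KO replicate 3, the lowest of its group for 17 genes, and WT replicate 1, the lowest for 21. Double KO replicate 1 was the lowest for 14, and the matching shares of all genes tested were not computed. Averaged over the 34 genes, log2 CPM was 4.53, 4.75 and 4.40 in double KO replicates 1 to 3, against 4.53, 4.67 and 4.93 in WT replicates 1 to 3. The difference between groups was thus smaller than the range within either group. Arc, Nr4a1, Sik1, Trib1 and Plk3 followed another order in double KO, with replicate 1 the highest and replicate 3 the lowest. Without WT replicate 3, the number of genes with a fold change below 0 was 18, against 25 with all libraries, and the median log2 fold change was -0.05. Without WT replicate 1 the number was 29 and the median -0.28, and without double KO replicate 2 they were 29 and -0.31.

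**Figure D4:**
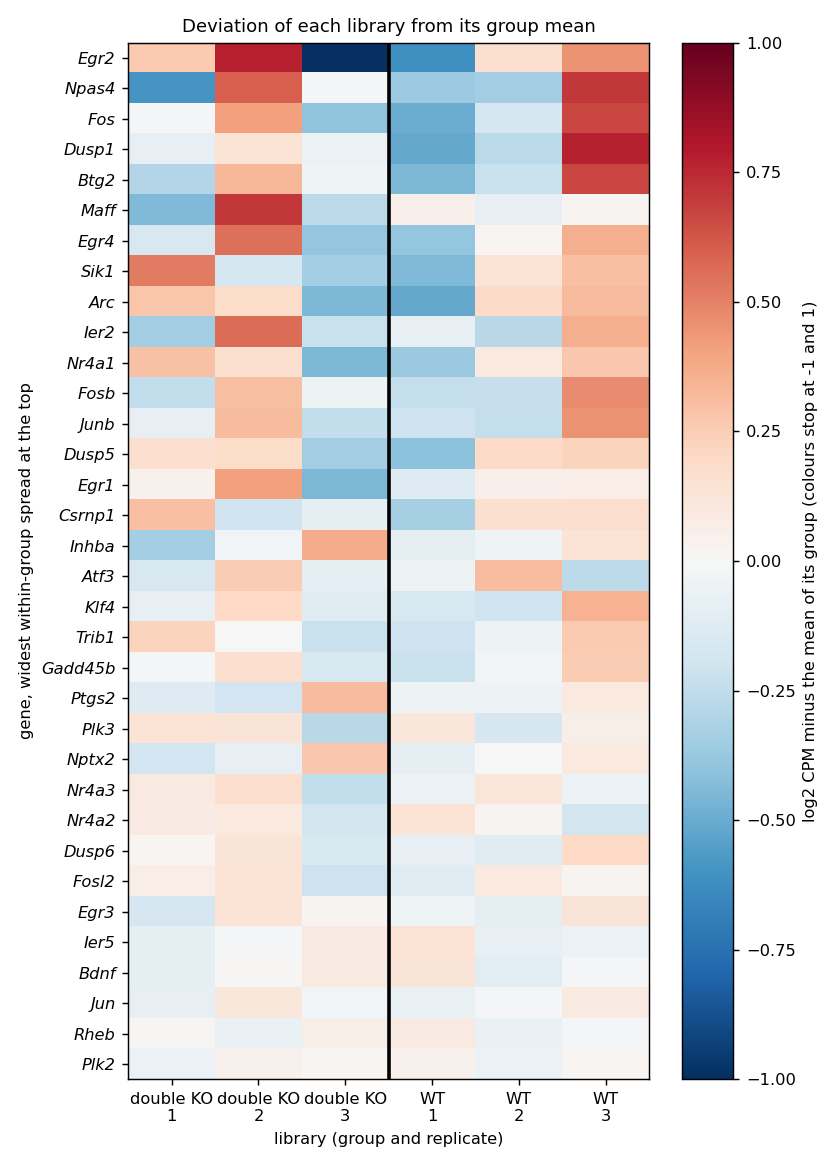
Deviation of log2 CPM from the mean of its own group (colour, red above and blue below, colours stop at -1 and 1) for each gene (rows, widest spread at the top) in double KO libraries (left of the line) and WT libraries (right). Double KO replicate 2 and WT replicate 3 are red in most rows, and double KO replicate 3 and WT replicate 1 are blue in most rows.

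Genes of the pathway that switches these genes on changed in part. Of 58 kinases, channels, coactivators and transcription factors upstream, all tested, 5 rose and 2 fell (12.1%, against 6.95% of all genes), with a median log2 fold change of -0.02. Elk3, a partner of SRF that can repress, measured 16.7 ± 1.04 CPM in double KO and 10.6 ± 0.171 CPM in WT (log2 fold change 0.66, SE 0.0941, edgeR adjusted p = 0.00043). Mapk3, which encodes the kinase ERK1, measured 183 ± 8.78 CPM in double KO and 144 ± 12.9 CPM in WT (0.35, SE 0.0713, edgeR adjusted p = 0.00755). Rasgrf2, an exchange factor that couples calcium to Ras, measured 152 ± 1.54 CPM and 117 ± 11.2 CPM in the same groups (0.37, SE 0.0693, edgeR adjusted p = 0.00357). Rps6ka2, a ribosomal S6 kinase downstream of ERK, fell to 38.1 ± 3.55 CPM in double KO, against 48.0 ± 0.685 CPM in WT (-0.33, SE 0.0742, edgeR adjusted p = 0.0129). The upstream genes had a median SD of 0.0851, below the 0.121 of all genes tested. For their level it was not small, since 37 of 58 had a wider spread than the median gene of their decile (median of these decile values 0.0724). Without double KO replicate 2 the edgeR adjusted p was 0.0501 for Mapk3 and 0.08 for Rps6ka2, and without double KO replicate 3 it was 0.1 for Rps6ka2. The number changed was 4 without double KO replicate 1, 2 without double KO replicate 2 and 4 without double KO replicate 3.

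Other genes that activity induces, among them delayed response genes and further rapid ones, changed in both directions. Of 67, all tested, 3 rose and 2 fell (7.46%, against 6.95% of all genes tested), with a median log2 fold change of -0.03. The fold change was below 0 for 42 and above 0 for 25, against 8736 and 8125 of all genes tested. Their median SD was 0.121, as over all genes tested, and 49 had a wider spread than the median gene of their decile. Pdyn, the gene of the opioid precursor prodynorphin, measured 20.4 ± 3.43 CPM in double KO and 12.7 ± 0.310 CPM in WT (0.68, SE 0.115, edgeR adjusted p = 0.00186), and Penk, that of proenkephalin, 28.8 ± 1.82 CPM and 22.9 ± 1.60 CPM (0.33, SE 0.0844, edgeR adjusted p = 0.0301). Rgs4, a brake on G protein signalling, fell to 141 ± 4.40 CPM in double KO, against 182 ± 13.1 CPM in WT (-0.37, SE 0.0647, edgeR adjusted p = 0.00252). Bhlhe40, a transcriptional repressor of the clock, fell to 119 ± 9.43 CPM, against 149 ± 1.73 CPM in WT (-0.32, SE 0.0651, edgeR adjusted p = 0.00748). Penk lost its call without double KO replicate 2 or 3 or WT replicate 1 or 2 (edgeR adjusted p = 0.0829, 0.162, 0.0691 and 0.087), and Bhlhe40 without double KO replicate 1 or 3 (edgeR adjusted p = 0.0508 and 0.0685). The number changed was 3 without double KO replicate 2, 2 without double KO replicate 3 and 3 without WT replicate 2.

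Genes that glucocorticoids induce were counted as well, since handling and stress induce them. Of 21 glucocorticoid response genes 20 were tested, and 0 passed in edgeR, DESeq2 or limma-voom, with 7 at an unadjusted p under 0.05. The fold change was below 0 for 19 of the 20, with a median of -0.19, and the median SD within groups of 0.270 was close to the 0.260 of the immediate early genes. Their summed level was 970, 1005 and 909 CPM in double KO replicates 1 to 3, against 906, 1145 and 1290 CPM in WT replicates 1 to 3. By this sum the highest library of each group was the one that was high for the immediate early genes too, narrowly so in double KO. Averaged over the tested genes of the list, log2 CPM was 4.92, 4.92 and 4.80 in double KO replicates 1 to 3. In WT replicates 1 to 3 it was 4.72, 5.16 and 5.29, so by this measure the match held in WT alone. Tsc22d3, a mediator of glucocorticoid action, measured 82.8 ± 8.82 CPM in double KO and 113 ± 34.8 CPM in WT (log2 fold change -0.45, edgeR adjusted p = 0.132), and Errfi1, a feedback inhibitor of growth factor receptors, 46.2 ± 3.49 CPM and 53.2 ± 3.79 CPM (-0.20, edgeR adjusted p = 0.142). Without WT replicate 1, 4 of the list changed. Dusp1 stands in this list as well as among the 34. The part of the list in the spread of the immediate early genes was not tested.

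Markers of cell types were summed in each library. All 5 principal neuron markers had a fold change below 0 and 1 fell, Neurod6. Their summed level, mostly Camk2a, was 5930 to 6500 CPM in double KO and 6350 to 6740 CPM in WT. Averaged over the 5 genes, log2 CPM was 8.65, 8.73 and 8.77 in double KO replicates 1 to 3, against 8.86, 8.85 and 8.79 in WT. By this average every double KO library lay below every WT library, narrowly so for double KO replicate 3. All 15 glial markers had a fold change above 0, and their sums in double KO were 2670 to 2720 against 2210 to 2580 CPM in WT for 5 astrocyte genes, 284 to 320 against 249 to 285 CPM for 5 microglial genes and 5210 to 5860 against 4720 to 5070 CPM for 5 oligodendrocyte genes. Of the 15, Gfap and Mbp rose, Mbp not without double KO replicate 2 or 3 (edgeR adjusted p = 0.0564 and 0.107). Interneuron markers, of which 0 of 6 passed with 1 at an unadjusted p under 0.05, summed to 768 to 838 CPM in double KO and 816 to 859 CPM in WT. Their fold change was below 0 for 5 of the 6, so that direction was not particular to principal neurons. Vascular markers summed to 322 to 366 and 310 to 324 CPM in the same groups (1 of 7 rose, Pdgfrb, not without any of double KO replicates 1 and 3 and WT replicates 1 to 3). Choroid plexus markers summed to 57.7 to 121 and 28.9 to 43.5 CPM (1 of 4 rose, Kl, at 58.9 ± 3.45 and 22.0 ± 1.37 CPM). The sum in double KO replicate 2 was nearly all Kl. Averaged over the 4 genes, log2 CPM was 2.94, 1.19 and 2.89 in double KO replicates 1 to 3, against 2.03, 1.31 and 1.58 in WT. By that measure the groups overlapped, with double KO replicate 2 the lowest library. Ttr of the same list measured 58.9, 1.60 and 55.9 CPM in double KO replicates 1 to 3, against 19.1, 5.96 and 7.23 CPM in WT. Markers of neighbouring regions summed to 42.9 to 52.1 and 42.7 to 50.5 CPM (0 of 4 tested passed, and 0 had an unadjusted p under 0.05), and erythrocyte genes to 44.1 to 50.9 and 22.9 to 55.3 CPM (0 of 3 passed, 1 at an unadjusted p under 0.05). Of all these marker genes 0 were at 0 in every library. Within WT, erythrocyte genes were highest in replicate 3, at 55.3 CPM against 30.3 and 22.9 CPM in replicates 1 and 2. The part of these cell types in the levels of the 34 genes was not tested.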

How the data were processed

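The authors deposited unscaled counts per gene for each of the 6 libraries. Per the submitters' processing notes, the tools were cutadapt 1.18, HISAT2 and HTSeq 0.11.1 and the build was GRCm38 (mm10), with no step assigned to each. The sources used here do not give the HISAT2 version, the annotation release or the strand setting. Symbols, coordinates and exon lengths came from GENCODE M21 (GRCm38), which matched 48435 of 48795 identifiers, and promoters from RefSeq (GRCm38.p6).

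Genes were filtered with filterByExpr (minimum count 10, minimum total 15), scaled with TMM and tested with edgeR's quasi-likelihood test, group as the only term, with Benjamini-Hochberg adjustment over 16861 genes. SE is the log2 fold change divided by the square root of F, and 95% intervals use the moderated degrees of freedom. Log2 CPM used a prior count of 2. Lists were described by counts and medians without a set test. Members, lists and tests were chosen with earlier results of these data known. Nptx2 and Nr4a2, then the 6 next smallest p-values, the 4 widest and the 4 narrowest spreads were described in full, and the others by range, count or, after their values were seen, by library. In each further list up to 4 genes past the threshold were named, or, failing any, those 2 of smallest p. The scripts were tested on simulated data. Replicates of a group differed by 3.43 to 9.87 times sampling noise (chi-square per degree of freedom), so none was a duplicate. Intervals cover the spread between these 6 libraries. Alternatives were DESeq2, limma-voom, RLE scaling, scaling by library size, a replicate block, no filter on counts, 1 CPM or more in 3 libraries, each library left out, a prior count of 0.5 and thresholds of 0.01 and 0.1. Versions were edgeR 4.0.16, DESeq2 1.42.0 and limma 3.58.1 under R 4.3.3.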

Additional observations from a re-analysis of the deposited data

How the results depend on the processing

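The call of Nptx2 held under all 7 other fits of the 6 libraries (DESeq2, limma-voom, RLE scaling, scaling by library size, the replicate block, no filter, 1 CPM or more in 3 libraries), with a log2 fold change of 0.52 to 0.55, and so did that of Nr4a2 (-0.37 to -0.35). Over the 34 genes and these fits, 229 of 237 values kept direction and call, 6 passed the threshold in addition, all with no filter on low counts, and 2 changed sign at 0.00 when rounded (Egr3 with scaling by library size, Gadd45b with no filter). With 1 library left out 165 of 204 did, 4 lost and 5 gained a call and 30 changed sign; Arc, Dusp5, Dusp6, Egr1 and Sik1 gained a call. The number of immediate early genes that fell was 1, against 7 with no filter, 0 at a threshold of 0.01, 2 at 0.1 and 0 to 2 with 1 library left out; the number that rose was 1 and 0 to 1 with 1 library left out. Over all genes 995 rose (614 at 0.01, 676 to 1101 with 1 library left out) and 177 fell (279 with no filter, 47 at 0.01, 395 at 0.1, 48 to 323 with 1 library left out). The number of upstream genes changed was 7 (3 at 0.01, 2 to 9 with 1 library left out), of other activity-induced genes 5 (3 at 0.01, 2 to 7) and of glucocorticoid response genes 0 (3 with no filter, 0 to 4). The cause of these shifts was not tested. With 1 library left out the median log2 fold change of the 34 was -0.31 to -0.05. Depth limits the scarcest genes: at a mean of 19 counts the counting error of Atf3 (SD 0.331 on the log2 scale) exceeded its spread (0.254).

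Fold changes that changed sign with 1 library left out ran from -0.35 to 0.10 for Fosb, -0.04 to 0.06 for Jun, -0.35 to 0.09 for Junb, -0.73 to 0.08 for Egr2, -0.09 to 0.07 for Egr3 and -0.27 to 0.26 for Egr4. They ran from -0.53 to 0.27 for Npas4, -0.51 to 0.22 for Dusp1, -0.20 to 0.35 for Ier2, -0.44 to 0.18 for Btg2 and -0.03 to 0.09 for Bdnf. The others were Maff (-0.68 to 0.03), Gadd45b (-0.10 to 0.14), Inhba (-0.24 to 0.13), Ptgs2 (0.26 down to just below 0, 0.00 when rounded), Atf3 (-0.12 to 0.21), Plk3 (-0.15 to 0.06) and Trib1 (-0.15 to 0.11).

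Replicate numbers are shared between the groups, but libraries of the same number did not deviate together over all genes tested (correlations of 0.00, -0.01 and -0.02). Pairs of unlike number ran from -0.12 to 0.13, highest for double KO replicate 2 with WT replicate 3 and double KO replicate 3 with WT replicate 1. Such correlations cannot show whether libraries shared a day or a preparation, which was not tested. With the replicate block 960 genes rose and 149 fell, and among the immediate early genes 1 rose and 1 fell as without it.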
